A study of Danio rerio with 6 samples.

Results

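The 6 genes described here, pitx1, pitx3, eya1, six1b, lhx3 and pou1f1, encode transcription factors of the adenohypophyseal placode, the ectoderm that gives rise to the anterior pituitary, and of the cells that form from it. They were listed by name, with earlier results of these data known, and are 6 of the 31417 gene rows of the count tables. All 6 were present and all 6 had at least 1 unique molecular identifier (UMI, 1 count per captured mRNA molecule) in the wells kept. The row for lhx3 is written LHX3 in the tables and was matched by letters alone. The identifiers paired with the names are ENSDARG00000116608 for pitx1, ENSDARG00000070069 for pitx3, ENSDARG00000014259 for eya1, ENSDARG00000003803 for lhx3 and ENSDARG00000058924 for pou1f1.

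The placode forms next to the anterior neural plate and gives rise to the anterior lobe, whose cells secrete the pituitary hormones. Pitx and Lhx3 homeodomain proteins act early in this lineage, and in zebrafish pitx3 is needed for the pituitary and lens placodes. Eya1 is a co-activator and phosphatase that works with sine oculis homeobox proteins in placodes, and Pou1f1 is needed later for the cells that make growth hormone, prolactin and thyrotropin. The posterior lobe, or neurohypophysis, holds axon endings and pituicytes, which are glial cells of neural origin.

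Single cells of zebrafish pituitaries were profiled by MARS-seq, a plate method that counts UMIs per gene and well. All fish were of strain AB carrying Tg(pomca:EGFP), a reporter under the promoter of the corticotrope and melanotrope gene pomca, and all had been injected with 4.6 mM of the fluorescent dipeptide β-Ala-Lys-Nε-AMCA. The 3 groups were juveniles of 37 days post-fertilization (dpf; 5 µl injected), males of 5 months (10 µl) and males of 7 months (10 µl). In each group 5 pituitaries were dissected 3 hours after injection, pooled and dissociated. The cells were sorted with propidium iodide, a dye that enters dead cells, into 2 plates of 384 wells, and the tissue is labelled as neurohypophysis. Each age is therefore 1 pool on 2 plates, and p-values describe the spread between plates, not between fish. The edgeR test takes most of this spread from all genes together, so it is not the spread of each gene alone.

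Wells with at least 400 UMIs were kept, 1390 of 2304. Kept wells numbered 311 and 339 (990934 and 1166584 UMIs) for 37 dpf, 257 and 174 (439266 and 261477 UMIs) for 5 months, and 203 and 106 (204347 and 81949 UMIs) for 7 months. A count of 0 on a whole plate allows a level of up to 2.57 to 36.6 UMIs per 1000000 UMIs (CPM), taking 3 counts as the limit, which covers counting error only. The 4 adult plates were sequenced in 1 batch, 37 dpf replicate 2 in another, and the batch of 37 dpf replicate 1 is not listed. Age against 37 dpf, sequencing batch and injected volume therefore cannot be told apart. The adults were also all males. No well name occurred on more than 1 plate.

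Kept wells were placed in 4 groups. Wells with at least 2 UMIs of wnk1b, a kinase gene, were called wnk1b-positive (85 wells). Of the rest, wells with at least 5% of UMIs from the gonadotropin subunit genes cga, lhb and fshb were called gonadotropin-rich (40 wells). Wells with at least 5 UMIs of cyp26b1, which encodes a retinoic acid degrading enzyme, were called pituicyte wells (148 wells), and 1117 wells were left as other. Of these, 79, 40, 139 and 482 came from adult plates, with a median of 1360, 3321, 973 and 820.5 UMIs per well in that order. At 37 dpf there were 6 wnk1b-positive, 0 gonadotropin-rich, 9 pituicyte and 635 other wells.

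The epithelial label of the wnk1b-positive wells was set against 31 epithelial markers, of which 27 were found. Their summed level was 4095 to 5997 CPM in wnk1b-positive wells and 1488 to 2594 CPM in other wells over the 4 adult plates, with no overlap. Of the 14 markers tested, spint2, cldnb, cd9b and epcam were higher in wnk1b-positive wells and krt18 was lower (edgeR quasi-likelihood test, Benjamini-Hochberg adjusted p under 0.05). The pituicyte list stood at 7517 to 8887 CPM in wnk1b-positive wells and at 1716 to 6691 CPM in other wells, and 10 wells met both the wnk1b and the cyp26b1 rule. A further 3 wells met both the wnk1b and the gonadotropin rule, and 1 wnk1b-positive well held 56.4% of that group's cga UMIs. On the adult plates these genes were also seen outside the group they define. A cyp26b1 UMI was seen in 30 of 79 wnk1b-positive, 18 of 40 gonadotropin-rich and 150 of 482 other wells. A cga UMI was seen in 36 of 79 wnk1b-positive, 52 of 139 pituicyte and 197 of 482 other wells. The source of these UMIs was not tested. An alternative fit of the well groups left out the wells that met 2 rules. In it pitx3 was still called higher in wnk1b-positive than in other wells. Apart from this, the part of these wells in the results below was not tested, except where leaving out wells is named.

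Counts of the 6 genes were low. Over the kept wells eya1 had 166 UMIs in 109 wells, pitx3 106 UMIs in 65 wells and six1b 70 UMIs in 41 wells. The other members were rarer, with 15 lhx3 UMIs in 12 wells, 11 pou1f1 UMIs in 6 wells and 2 pitx1 UMIs in 2 wells. No well held more than 7 UMIs of any 1 member. A member was seen in 171 of 1390 wells, of which 122 held 1 member, 35 held 2, 13 held 3 and 1 held 4.

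All 5 members that could be tested were higher in the 5 month plates than in the 37 dpf plates, and 3 of 5 were higher in the 7 month plates. Plate by plate, pitx3 was counted 0 and 1 times among juveniles of 37 dpf, 51 and 16 times among males of 5 months and 34 and 4 times among males of 7 months. Its levels were thus 0 and 0.857 CPM in the first group, 116 and 61.2 CPM in the second and 166 and 48.8 CPM in the third. The 37 dpf plates lay far below every adult plate, and the ranges of the adult ages overlapped. pitx3 averaged 88.6 ± 38.8 CPM at 5 months and 0.429 ± 0.606 CPM at 37 dpf (SD, n = 2 plates each), and the fitted log2 difference was 7.05 ± 0.78 (SE; edgeR quasi-likelihood test, Benjamini-Hochberg adjusted p = 3.68e-08). With only 1 UMI at 37 dpf, the ratio of summed levels, 206, has a 95% counting interval of 35.8 to 8268.

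eya1, the co-activator gene, had levels of 3.03 and 11.1 CPM (37 dpf), 171 and 119 CPM (5 months), and 122 and 232 CPM (7 months). Every adult plate was above both juvenile plates, and the ranges of the adult ages overlapped. eya1 averaged 145 ± 36.9 CPM at 5 months and 7.09 ± 5.74 CPM at 37 dpf (SD, n = 2 plates each), a log2 difference of 4.29 ± 0.49 (edgeR, Benjamini-Hochberg adjusted p = 5.53e-08). At 7 months it averaged 177 ± 77.4 CPM (SD, n = 2 plates), 4.00 ± 0.52 above 37 dpf on the log2 scale (edgeR, Benjamini-Hochberg adjusted p = 9.11e-07). In the same comparison pitx3 was higher by 7.05 ± 0.82 (edgeR, Benjamini-Hochberg adjusted p = 1.15e-07).

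six1b, the sine oculis homeobox gene of this group, measured 1.01 and 7.71 CPM (37 dpf), 75.1 and 53.5 CPM (5 months), and 44.0 and 48.8 CPM (7 months). The juvenile and adult ranges did not overlap. Its log2 difference was 3.78 ± 0.60 at 5 months against 37 dpf (edgeR, Benjamini-Hochberg adjusted p = 1.54e-05) and 2.83 ± 0.74 at 7 months against 37 dpf (adjusted p = 0.00479 in the same edgeR fit). The 7 month call was lost without 37 dpf replicate 1 (log2 difference 2.1, edgeR adjusted p = 0.0585) and without 7 months replicate 1 (2.91, edgeR adjusted p = 0.116).

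lhx3, the LIM homeodomain gene, gave 1 and 0 UMIs in the plates of 37 dpf, 9 and 1 in those of 5 months, 2 and 2 in those of 7 months. It was higher at 5 months than at 37 dpf by 4.29 ± 1.25 on the log2 scale (edgeR, Benjamini-Hochberg adjusted p = 0.0106). This call was lost with DESeq2, another test method, and without 37 dpf replicate 2. The 7 month difference of 3.98 ± 1.49 was not called (edgeR, Benjamini-Hochberg adjusted p = 0.0505). It was called in 4 of 13 alternatives, among them library size alone (edgeR adjusted p = 0.0325) and RLE factors (edgeR adjusted p = 0.0405). pou1f1 had 10 and 1 UMIs at 5 months and 0 UMIs on the other 4 plates. Its summed 5 month level of 15.7 CPM was 11.3-fold the 37 dpf limit of 1.39 CPM, which takes 3 counts over the 37 dpf wells. This ratio leaves out the counting error of the 5 month level (interval 7.84 to 28.1 CPM), so the difference may be smaller. pou1f1 was called higher at 5 months than at 37 dpf (edgeR, Benjamini-Hochberg adjusted p = 0.00379). pitx1 had its 2 UMIs on 5 months replicate 2 and was not tested.

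These counts stand beside a wide difference between the ages. Of 11304 genes tested, 26.3% were called at 5 months against 37 dpf, 11.9% as higher, and 23.7% at 7 months against 37 dpf, 8.6% as higher. The median of all genes was -0.15 and -0.49 on the log2 scale in those comparisons, and the median of the 5 members was 4.29 and 3.98. Scaling by library size alone moved the 7 month median by 0.41 and the share of calls that were higher to 53.2%, against 36.2% with TMM. Set against the median of all genes, the 7 month differences were 7.54 for pitx3, 4.49 for eya1 and 3.33 for six1b with TMM, and 7.53, 4.54 and 3.34 with library size alone. Here and below, subtracting the median removes a shift shared by all genes. The likeness of such values between scalings follows from that and is no check of a result.

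In whole plates, fewer cells of a type and less RNA per cell cannot be told apart. Other cell types moved with age. At 5 months against 37 dpf, 11 of 12 erythrocyte markers tested were lower, and 7 of 7 gonadotrope and thyrotrope markers were higher. Without globin-rich wells the log2 differences at 5 months were 6.80 for pitx3, 4.02 for eya1 and 3.51 for six1b. Without gonadotropin-rich wells they were 6.40, 3.74 and 2.88, and the 3 genes were still called in both cases (edgeR, Benjamini-Hochberg adjusted p of 0.00432 or less). The wnk1b-positive wells numbered 6 at 37 dpf and 79 on the adult plates, where they held 51.4% of the pitx3 UMIs. They were not left out in any age comparison, so their part in these differences was not tested.

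Between the adult ages none of the 5 members was called, with 0.902% of all genes called. The log2 differences at 7 against 5 months were 0.00 ± 0.47 for pitx3, -0.28 ± 0.43 for eya1 and -0.94 ± 0.60 for six1b (edgeR, Benjamini-Hochberg adjusted p of 0.603 or more), beside a median of -0.25 over all genes. With library size alone the eya1 value was 0.18, so its direction depended on the scaling. pou1f1 had 11 UMIs at 5 months, 10 of them on replicate 1, and 0 UMIs at 7 months. The counting intervals of its level at the adult ages overlapped (7.84 to 28.1 CPM and 0 to 12.9 CPM). Its unadjusted p of 0.0284 gave an adjusted p of 0.388 in the edgeR test. Gonadotropin-rich wells numbered 3 at 7 months and 37 at 5 months.

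**Figure D1:**
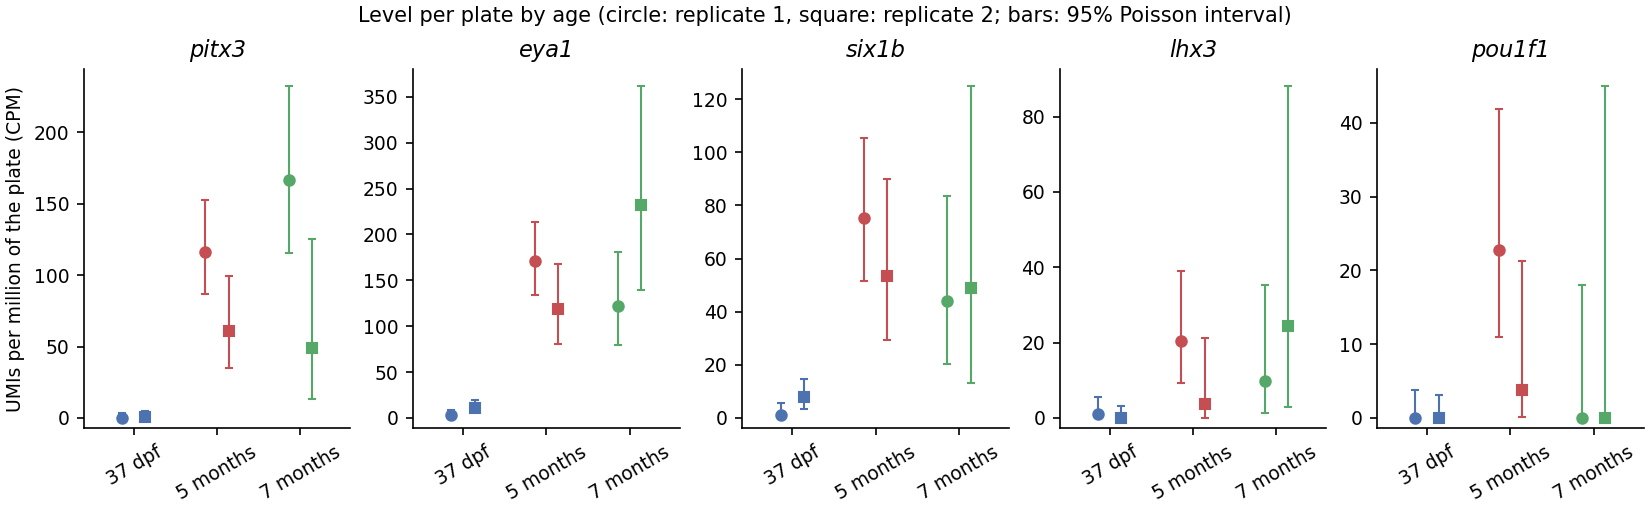
Level of 5 members in each plate (CPM of the plate's kept wells, linear axis from 0, each panel with its own scale) at 37 dpf, 5 months and 7 months; circles are replicate 1, squares replicate 2, and bars 95% Poisson intervals. pitx3, eya1 and six1b lie at or below 11.1 CPM on both juvenile plates and at or above 44.0 CPM on all adult plates, and pou1f1 has UMIs at 5 months only.

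On the adult plates pitx3 and eya1 had their highest levels in the wnk1b-positive and gonadotropin-rich wells, which held 51.4% and 24.8% of the pitx3 UMIs and 28.7% and 32.0% of the eya1 UMIs, with 12.3% and 14.4% of all UMIs. Gonadotropin-rich wells held 45.0% of the six1b UMIs, while pou1f1 had 0 UMIs in both groups. A member was seen in 48 of 79 wnk1b-positive wells (60.8%), 32 of 40 gonadotropin-rich wells (80.0%), 11 of 139 pituicyte wells (7.91%) and 58 of 482 other wells (12.0%). At least 2 members were seen in 19, 14, 0 and 14 wells of these groups. These shares are not corrected for depth, and gonadotropin-rich wells were the deepest.

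pitx3 was highest in wnk1b-positive wells. On the plates 5 months replicate 1, 5 months replicate 2, 7 months replicate 1 and 7 months replicate 2 its level was 467, 159, 594 and 160 CPM in wnk1b-positive wells (27, 2, 23 and 2 UMIs), against 12.6, 56.2, 80.3 and 47.6 CPM in other wells (3, 9, 10 and 2 UMIs). The values of the groups did not overlap, and wnk1b-positive wells were the higher on each of the 4 plates. On replicate 2 of each age, which rested on 2 UMIs in wnk1b-positive wells, the counting intervals of the groups overlapped. Summed over the plates the level was 444 CPM in wnk1b-positive wells (95% Poisson interval 333 to 579) and 42.6 CPM in other wells (27.3 to 63.3), a ratio of 10.4 (95% counting interval 6.34 to 17.6). The fitted log2 difference was 2.22 ± 0.51 (edgeR, Benjamini-Hochberg adjusted p = 0.000577). It was the 1 member of 5 called, in a comparison where 6.55% of 7116 genes were called and 1.1% were called as higher.

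The pitx3 call was lost without 5 months replicate 1 (log2 difference 1.36, edgeR adjusted p = 0.269), and when wnk1b-positive wells were required to have at least 5 wnk1b UMIs (1.37, edgeR adjusted p = 0.160). In the latter, wells with fewer wnk1b UMIs were not left out but passed to the remaining groups, among them the other wells. Adult wells with 2 wnk1b UMIs held 10 pitx3 UMIs, and those with 3 to 4 held 12. The pitx3 call was kept in 18 of 20 alternatives.

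In gonadotropin-rich wells, which reached 5 wells on the 5 month plates alone, pitx3 stood at 235 and 98.9 CPM (21 and 5 UMIs), against 12.6 and 56.2 CPM in other wells of those plates. Both plates had the higher value in gonadotropin-rich wells, and these 2 values lay above all 4 of other wells. The counting intervals of the groups overlapped on 5 months replicate 2. The summed ratio was 4.30 (95% counting interval 2.38 to 7.83) and the fitted log2 difference 1.80 ± 0.62 (edgeR, Benjamini-Hochberg adjusted p = 0.0432). The call was kept in 11 of 20 alternatives, and the log2 difference was 0.71 without 5 months replicate 1 (edgeR adjusted p = 0.846).

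Pituicyte wells had 1 pitx3 UMI on the 4 adult plates, with 0, 0, 24.7 and 0 CPM, against 12.6 to 80.3 CPM in other wells. The summed level was 6.27 CPM in pituicyte wells (95% Poisson interval 0.159 to 34.9). pitx3 was lower there than in other wells, with a log2 difference of -3.09 ± 1.02 (edgeR, Benjamini-Hochberg adjusted p = 0.0321), a call kept in 8 of 20 alternatives. In wnk1b-positive against pituicyte wells the difference was 5.31 ± 0.85 (edgeR, Benjamini-Hochberg adjusted p = 7.18e-08), called in all 20 alternatives. The order of the summed levels was wnk1b-positive, gonadotropin-rich, other and pituicyte. Of the neighbours in it, the wnk1b-positive and gonadotropin-rich wells were not called different in the test across plates (0.42 ± 0.59, edgeR adjusted p = 0.810), while their summed ratio was 2.42 with a counting interval of 1.49 to 4.03.

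eya1 reached like levels in wnk1b-positive and gonadotropin-rich wells. In the plate order above it stood at 363, 317, 361 and 320 CPM in wnk1b-positive wells (21, 4, 14 and 4 UMIs), against 110, 37.4, 56.2 and 286 CPM in other wells (26, 6, 7 and 12 UMIs). All 4 wnk1b-positive values lay above all 4 values of other wells, but on 7 months replicate 2 the counting intervals of the groups overlapped. The group means were 340 ± 25.2 CPM in wnk1b-positive wells and 122 ± 113 CPM in other wells (SD, n = 4 plates each). Summed levels were 353 CPM and 90.4 CPM, a ratio of 3.91 (95% counting interval 2.54 to 5.98). The fitted log2 difference of 0.99 ± 0.44 was not called (edgeR, Benjamini-Hochberg adjusted p = 0.193).

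Whether eya1 was called depended on the scaling, the gene filter and the wnk1b threshold. It was called in 4 of 20 alternatives: library size alone, RLE factors, another gene filter (filterByExpr) and wnk1b-positive wells at 1 or more UMIs. With library size alone the eya1 difference was 1.84 (edgeR, Benjamini-Hochberg adjusted p = 0.00144) and with RLE factors 1.51 (edgeR, adjusted p = 0.0126). Library size alone moved the median of all genes in this comparison by 0.75 on the log2 scale, and the share of calls that were higher to 63.9%, against 16.7% with TMM. Set against the median of all genes, the wnk1b-positive difference was 1.59 for eya1 and 2.82 for pitx3 with TMM, and 1.66 and 2.86 with library size alone. These values are alike because the shared shift is subtracted, so they do not settle which scaling holds.

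In gonadotropin-rich wells of the 5 month plates eya1 stood at 314 and 356 CPM (28 and 18 UMIs), against 110 and 37.4 CPM in other wells. Gonadotropin-rich wells were the higher on both plates. The fitted log2 difference was 1.66 ± 0.51 (edgeR, Benjamini-Hochberg adjusted p = 0.0174), called in 13 of 20 alternatives and lost without 5 months replicate 1 (edgeR adjusted p = 0.112) and without 5 months replicate 2 (edgeR adjusted p = 0.331). eya1 and pitx3 were the 2 members of 5 called there, where 8.78% of all genes were called and 2.11% were called as higher. Library size alone moved the median of all genes by 0.36 and the share of higher calls to 40.1%, against 24% with TMM. Set against that median, the gonadotropin-rich differences were 2.41 for pitx3, 2.27 for eya1 and 2.1 for six1b with TMM, and 2.44, 2.28 and 2.14 with library size alone.

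Between wnk1b-positive and gonadotropin-rich wells the summed eya1 ratio was 1.04 (95% counting interval 0.676 to 1.61). The fitted log2 difference was -0.67 ± 0.53 and not called (edgeR, Benjamini-Hochberg adjusted p = 0.613). It ran from -1.29 to -0.18 over the alternatives. Pituicyte wells stood at 0, 78.8, 98.8 and 38.5 CPM eya1, overlapping the 37.4 to 286 CPM of other wells. That difference was not called (-1.49 ± 0.59, edgeR, Benjamini-Hochberg adjusted p = 0.0993). Against pituicyte wells, wnk1b-positive wells were higher in eya1 by 2.48 ± 0.59 (edgeR, Benjamini-Hochberg adjusted p = 0.00172), and this was lost without 5 months replicate 1 (1.76, edgeR adjusted p = 0.252). pitx3 and eya1 were the 2 members of 5 called in that comparison, where 2.98% of all genes were called and 1.26% were called as higher. Library size alone moved its median by 0.20 and the share of higher calls to 55.6%, against 42.5% with TMM, and set against the median the eya1 difference was 2.6 with TMM and 2.70 with library size alone.

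six1b had its highest value in gonadotropin-rich wells. These had 258 and 59.3 CPM on the 5 month plates (23 and 3 UMIs), against 33.7, 62.4, 48.2 and 47.6 CPM in other wells of the 4 plates (8, 10, 6 and 2 UMIs). The gonadotropin-rich wells were the higher on 5 months replicate 1 and the lower on 5 months replicate 2, so the groups overlapped. The summed ratio was 4.13 (95% counting interval 2.32 to 7.36), of which 1 well gave 7 of the 27 UMIs. The fitted log2 difference of 1.48 ± 0.65 was not called (edgeR, Benjamini-Hochberg adjusted p = 0.153). It was called with library size alone (1.88, edgeR adjusted p = 0.0463) and not with RLE factors (edgeR adjusted p = 0.0518). Without 5 months replicate 2 the difference was 2.83, with 1 plate left in the gonadotropin-rich group. Over the 19 alternatives it ran from -0.47 to 2.83, and in 1 of them its sign was reversed.

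wnk1b-positive wells had 34.6, 79.3, 77.5 and 80.0 CPM six1b (2, 1, 3 and 1 UMIs), a range that overlaps that of other wells. The difference was -0.56 ± 0.72 with TMM and 0.24 with library size alone, neither called (edgeR, Benjamini-Hochberg adjusted p = 0.780 with TMM). Summed over plates, wnk1b-positive wells had 0.302 of the gonadotropin-rich level (95% counting interval 0.111 to 0.712), while the test across plates did not call it (-2.05 ± 0.79, edgeR, Benjamini-Hochberg adjusted p = 0.141). None of the 5 members was called between these groups, against 4.15% of all genes.

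Pituicyte wells had 0 six1b UMIs on all 4 adult plates, against 26 UMIs in other wells. The summed level of other wells, 46.1 CPM, was 2.45-fold the pituicyte limit of 18.8 CPM, which takes 3 counts over the group. This ratio leaves out the counting error of the level in other wells (interval 30.1 to 67.6 CPM), so the difference may be smaller. six1b was called lower in pituicyte than in other wells (edgeR, Benjamini-Hochberg adjusted p = 0.00361). The call was kept in 17 of 19 alternatives, but not with DESeq2 and not without 5 months replicate 2 (edgeR adjusted p = 0.0670). pitx3 and six1b were the 2 members of 5 called there, where 9.16% of all genes were called and 6.73% were called as lower. Library size alone moved the median in this comparison by 0.57 and the share of higher calls to 59.2%, against 26.5% with TMM, and set against that median pitx3 was at -2.66 with TMM and -2.72 with library size alone. The pitx3 call was not kept with library size alone (edgeR adjusted p = 0.143).

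lhx3 was seen in 11 adult wells, 4 of them wnk1b-positive, 3 gonadotropin-rich, 0 pituicyte and 4 other. Its level over the 4 plates was 104, 0, 0 and 80.0 CPM in wnk1b-positive wells (6, 0, 0 and 1 UMIs), against 4.22, 0, 16.1 and 23.8 CPM in other wells (1, 0, 2 and 1 UMIs). The groups overlapped, and the summed ratio of 8.11 has a counting interval of 2.06 to 37.8. The fitted difference of 1.59 ± 1.1 was not called (edgeR, Benjamini-Hochberg adjusted p = 0.506).

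**Figure D2:**
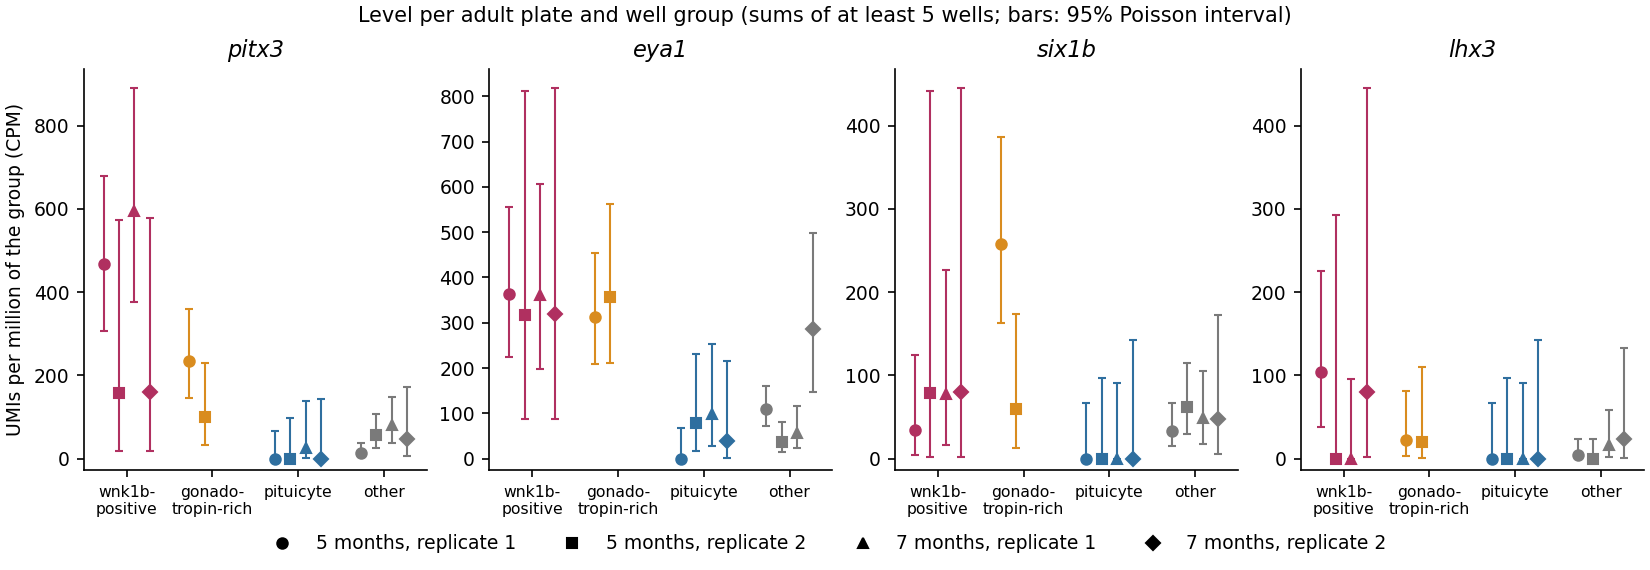
Level of 4 members by adult plate and well group (CPM of the group on that plate, linear axis, each panel with its own scale), with symbols for the 4 plates, sums of at least 5 wells, and 95% Poisson intervals as bars. pitx3 and eya1 are highest in wnk1b-positive and gonadotropin-rich wells, six1b on 1 plate of gonadotropin-rich wells, and pituicyte wells lie at 0 for six1b and lhx3.

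**Figure D3:**
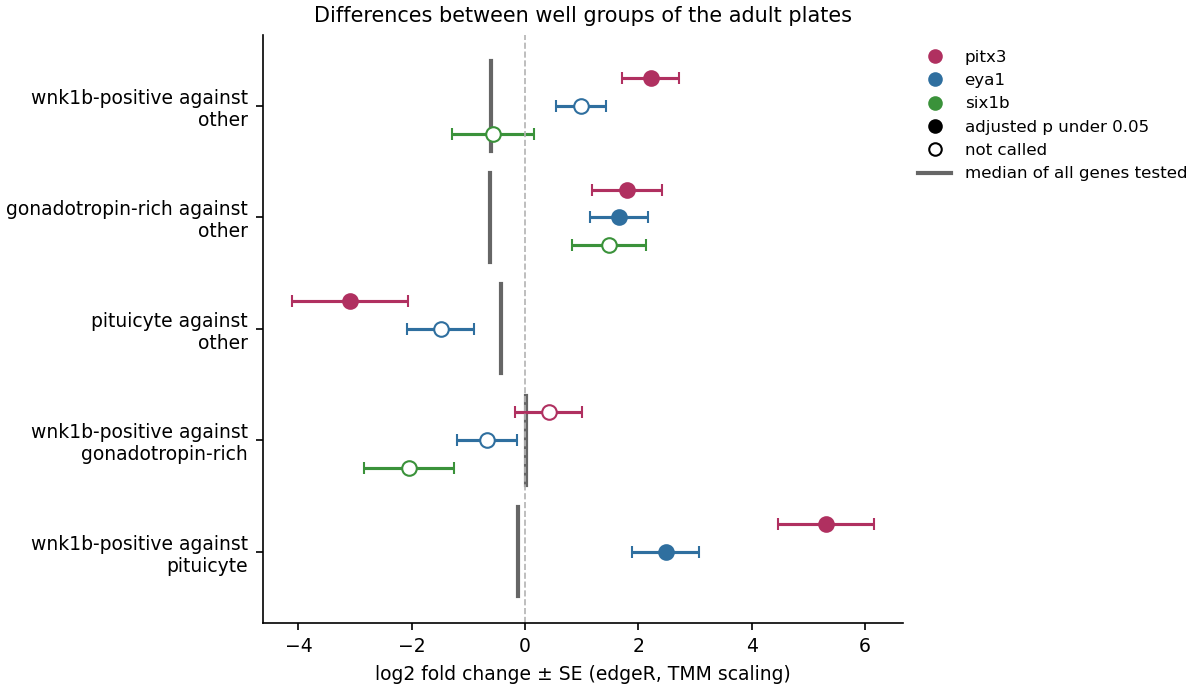
Fitted log2 fold changes of pitx3, eya1 and six1b (points, ± SE; filled where the edgeR adjusted p is under 0.05) in the 5 comparisons between adult well groups, with the median of all genes tested as a grey bar. six1b is not drawn against pituicyte wells, which had 0 UMIs; pitx3 is called in 4 comparisons, lower in pituicyte wells and higher in the other 3.

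Within wnk1b-positive wells only pitx3 and eya1 had enough UMIs to be tested between the adult ages. At 7 against 5 months pitx3 differed by 0.27 ± 0.70 and eya1 by 0.02 ± 0.65, neither called (edgeR, Benjamini-Hochberg adjusted p of 1.00 for both), with 0.158% of 1264 genes called.

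Adult wells were also sorted by the number of wnk1b UMIs, leaving out the 43 wells with at least 5% gonadotropin UMIs, which left 697. In these the pitx3 level was 30.7 CPM with 0 UMIs (550 wells), 57.2 with 1 (71 wells), 206 with 2 (12 wells), 415 with 3 to 4 (18 wells), 345 with 5 to 9 (27 wells) and 571 with 10 or more (19 wells). eya1 stood at 69.5, 153, 137, 380, 488 and 371 CPM in the same order. Both were higher in the wells with 3 or more wnk1b UMIs than in those with 0, beyond their counting intervals, and the intervals above 3 UMIs overlapped. six1b stood at 27.5, 85.8, 137, 0, 28.7 and 57.1 CPM and showed no such order. Wells of 2 wnk1b UMIs, just inside the rule, and of 1, just outside it, held 3 and 6 pitx3 UMIs. The 3 UMIs of the former all lay in 1 well. Over all 740 adult wells the levels with 0 wnk1b UMIs (584 wells) were 51.7 CPM for pitx3, 116 CPM for eya1 and 58.5 CPM for six1b. With 1 wnk1b UMI pitx3 was then at 99.7 CPM and with 2 at 436 CPM (10 UMIs in 4 of 15 wells). The wells with 2 then included wells that also met the gonadotropin rule. The levels from 3 UMIs on were the same, since no well was left out there. epcam, an epithelial adhesion molecule, stood at 38.8, 200, 343, 518, 919 and 1027 CPM.

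**Figure D4:**
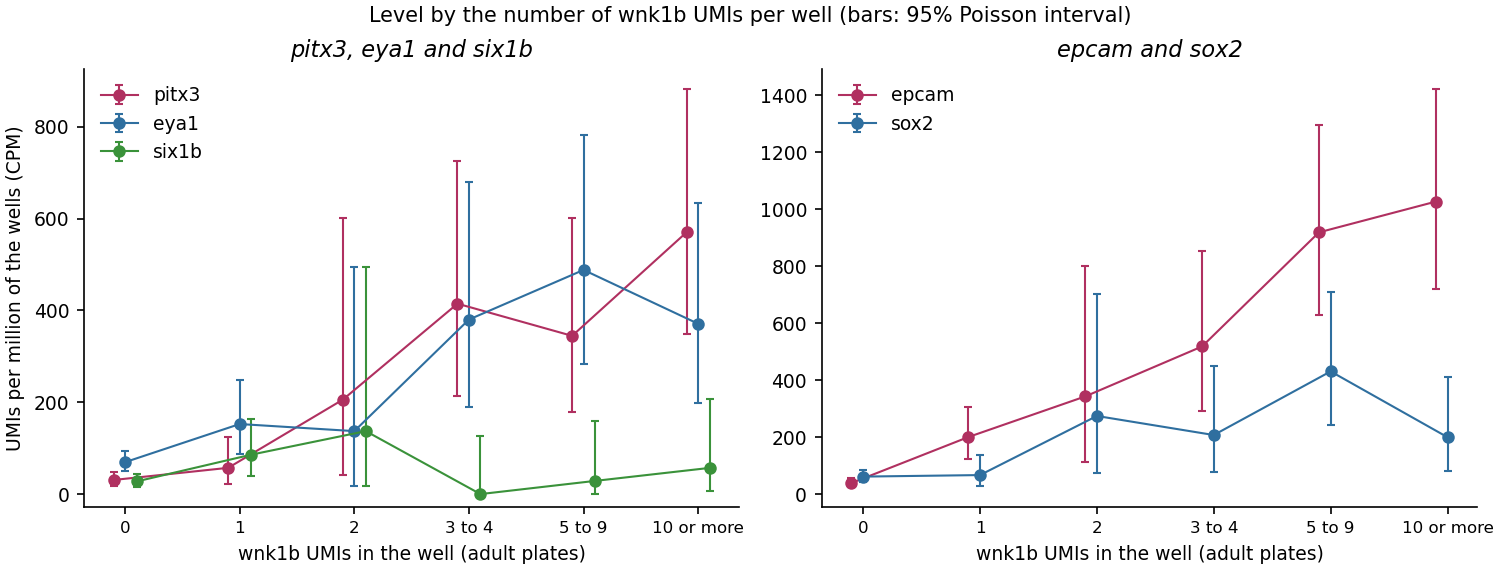
Level of pitx3, eya1 and six1b (left) and of epcam and sox2 (right) in the 697 adult wells below 5% gonadotropin UMIs, by the number of wnk1b UMIs in the well (horizontal axis), in CPM, with 95% Poisson intervals; the panels have separate linear scales. pitx3 goes up to 571 CPM and eya1 to 488 CPM in wells with wnk1b, while six1b has no such order.

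Shares of wells depend on depth. As deposited, pitx3 was seen in 38.0% of wnk1b-positive wells (30 of 79, 95% Clopper-Pearson interval 27.3 to 49.6%), 35.0% of gonadotropin-rich wells (14 of 40), 0.719% of pituicyte wells (1 of 139) and 3.94% of other wells (19 of 482). In 42 myeloid wells, a group of blood origin with a median of 3330 UMIs, it was seen in 0, which allows a share of up to 7.14%. With every well thinned to 400 UMIs the expected pitx3 share was 15.9%, 5.96%, 0.239% and 1.55% in the 4 groups. The expected shares have no interval, so no order of the wnk1b-positive and gonadotropin-rich wells is read from them. By the rule, at least 5% of UMIs in gonadotropin-rich wells are from gonadotropin genes, so equal depth leaves fewer UMIs for other genes there. Of these 40 wells, 37 came from the 5 month plates.

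eya1 was seen in 38.0% of wnk1b-positive wells, 65.0% of gonadotropin-rich wells (26 of 40), 5.76% of pituicyte wells (8 of 139), 6.64% of other wells (32 of 482) and 2.38% of myeloid wells (1 of 42). At 400 UMIs the expected shares were 14.7%, 14.0%, 2.18% and 2.90% in the first 4 groups. In 1 draw of 1000 UMIs a well, which leaves out shallower wells, eya1 was seen in 25.5% of wnk1b-positive wells (14 of 55) and 37.8% of gonadotropin-rich wells (14 of 37), with overlapping intervals, so no order of these 2 groups is read from the eya1 shares. six1b was seen in 7.59% of wnk1b-positive wells (6 of 79), 27.5% of gonadotropin-rich wells (11 of 40), 0 of 139 pituicyte wells, 3.11% of other wells (15 of 482) and 0 of 42 myeloid wells. Its expected shares at 400 UMIs were 2.41%, 6.56%, 0% and 1.19% in the first 4 groups.

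The members also met in the same wells. pitx3 and eya1 were seen together in 31 wells, 17 of them wnk1b-positive, 9 gonadotropin-rich and 5 other. In wnk1b-positive wells this was 56.7% of the 30 wells with pitx3 and 56.7% of the 30 with eya1. eya1 and six1b were seen together in 20 wells, and 10 of the 11 gonadotropin-rich wells with six1b also had eya1. These counts depend on the depth of a well and are given as a description.

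pou1f1 was seen in 6 wells, all at 5 months, of which 4 were other wells and 2 pituicyte wells. Of these, 3 wells had at least 1% of their UMIs from gh1, the growth hormone gene, at 47.4%, 26.5% and 2.34%, and another well had 8.45% of its UMIs from tshba, the thyrotropin beta subunit gene. The other 2 wells had 1 gh1 UMI each. The pituicyte wells among them were the one with 47.4% gh1, which had 5 cyp26b1 UMIs, and one with 1 gh1 UMI, which had 10. Over all adult wells, pou1f1 was seen in 3 of the 14 wells with at least 1% gh1 UMIs and in 2 of 723 wells with neither hormone at 1%. pitx3 was seen in all 3 wells with at least 1% tshba UMIs, each with 1 UMI, and in 58 of those 723 wells. The 2 pitx1 UMIs lay in 1 gonadotropin-rich well, which also had pitx3 and eya1, and in 1 other well.

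Adult wells of the other group that had a member were described by other genes seen in them. A single wnk1b UMI was seen in 26.3% of the 19 other wells with pitx3, 28.1% of the 32 with eya1 and 40.0% of the 15 with six1b, against 10.6% of all 482 other wells. An epcam UMI was seen in 21.1%, 18.8% and 33.3% of them, against 4.98%. Gonadotropin UMIs of 1% to 5% were seen in 31.6%, 9.38% and 20% of them, against 3.32%. A UMI of elavl3, a neuron marker, was seen in 0%, 18.8% and 0% of them, against 4.56%, and at least 3 UMIs of the collagen gene col1a2 in 26.3%, 18.8% and 20%, against 17.8%. The depth of these wells was not matched, and no test was made of these shares.

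At 37 dpf few UMIs of the members were counted. pitx3 and lhx3 had 1 UMI each, pitx1 and pou1f1 had 0, six1b had 10 UMIs in 9 wells and eya1 had 16 UMIs in 13 wells, for 22 of 650 wells with a member (3.38%). The 6 wnk1b-positive wells held 1 six1b UMI and no other member.

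The wider network of these factors was described with a list of 25 genes of the Eya, sine oculis homeobox, Dach and Pax families, of which 23 were found and 18 had a UMI. Among them six3 and six6 genes are known from the forebrain and eye. At 5 months against 37 dpf 8 of 12 were higher and 0 lower, with a list median of 2.93 on the log2 scale beside -0.15 over all genes. In wnk1b-positive against other wells 1 of 10 was higher, six3b by 2.05 ± 0.47 (edgeR, Benjamini-Hochberg adjusted p = 0.000682), with a list median of -0.37 beside -0.60. In gonadotropin-rich against other wells six6a and six6b of 10 were lower, with a list median of -1.27 (-0.51 with genes at 0 in a group put at their bound) beside -0.61. In pituicyte against other wells 3 of 10 were higher: six3b by 2.80 ± 0.43, six6a by 1.70 ± 0.41 and six3a by 1.40 ± 0.45 (edgeR, Benjamini-Hochberg adjusted p of 0.0253 or less). The median of the 10 was nevertheless -1.0, or 0 with genes at their bound, beside -0.43 over all genes.

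The adult levels of six1b, six3b and six6a are set side by side here. six3b had 370 CPM in wnk1b-positive, 63.4 in gonadotropin-rich, 546 in pituicyte and 46.1 CPM in other wells, where six1b had 57.5, 190, 0 and 46.1 CPM. six6a had 41.1, 7.05, 452 and 88.7 CPM in the same order. The difference between the genes in these patterns was not tested. six1a, the paralog of six1b, had 8.22, 0, 25.1 and 37.2 CPM, from 1, 0, 4 and 21 UMIs. Reads of such paralogs could be split by the counting, which is not described for these tables.

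**Figure D5:**
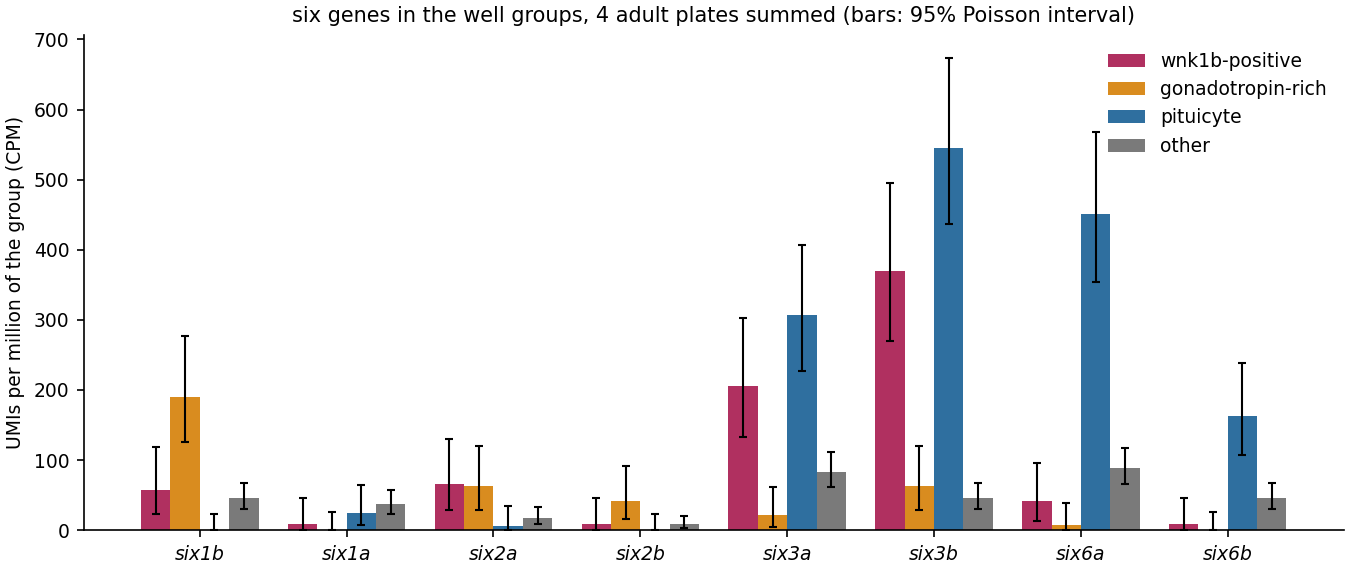
Summed level of 8 sine oculis homeobox genes (six1a to six6b) in the 4 well groups of the adult plates (CPM of the group, linear axis from 0; bars for wnk1b-positive, gonadotropin-rich, pituicyte and other wells, left to right; 95% Poisson intervals). six1b is highest in gonadotropin-rich wells at 190 CPM with 0 UMIs in pituicyte wells, and six3b and six6a are highest in pituicyte wells at 546 and 452 CPM.

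Of 48 further regulators of placodes and pituitary cells, 45 were found and 40 had a UMI. At 5 months against 37 dpf 19 of 29 were higher and 1 lower, and the list median of 3.5 became 2.84 with genes at 0 in a group put at their bound. In wnk1b-positive against other wells 2 of 22 were higher, among them sox2, a stem cell factor, by 2.59 ± 0.59 (edgeR, Benjamini-Hochberg adjusted p = 0.000526). isl1 was the 1 gene of 22 that was lower, and the list median was -1.08, or 0 with genes at their bound, beside -0.60.

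In gonadotropin-rich against other wells 4 of 22 regulators were higher and 4 lower. The higher ones were nr5a1b, the gonadotrope factor SF-1, at 176 CPM against 0, the oestrogen receptor gene esr1 at 317 CPM against 5.32 CPM, ascl1a at 338 CPM against 30.1 CPM, and egr4. The lower ones included foxo1a, sox3 and egr1, and the list median was -1.55, or 0 with genes at their bound. In pituicyte against other wells otx2, rx3 and sox2 were higher and the lower genes included zeb2a and isl1, with a list median of -1.72, or -0.11 with genes at their bound. lhx4 and hesx1, a close relative and a partner of the members, had 1 and 4 UMIs in all kept wells, and tbx19, a corticotrope factor, had 0.

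The genes whose levels were most like those of the members were ranked by Pearson's r over 18 sums of plate and well group among 5309 genes with at least 50 UMIs. These sums share plates and depth, so r is a description. For pitx3 they were fxyd1 (0.87), cdh13 (0.84), hsd3b7 (0.79), sdf4 (0.77) and timp4.1 (0.77). For eya1 they were epb41a (0.91), clstn1 (0.82), pitx3 (0.76), tmed7 (0.74) and cdh13 (0.74). For six1b they were cfp (0.81), thy1 (0.80), tagapa (0.76), pitx3 (0.75) and acsbg2 (0.75).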

How the data were processed

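Per the labels' protocols, polyA RNA of single sorted cells was barcoded by MARS-seq and sequenced on an Illumina machine. The submitters' processing notes name bcl2fastq 2.15.0.4, Seurat 3.1.5 and build danRer10; the counting tool and annotation are not given in the sources used here, and no sequence or coordinate is printed. The authors deposited raw UMI counts per gene and well, with no normalization; 92 spike-in rows held 0 counts.

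Counts were read with pandas 2.3.3 in Python 3.11.15. Wells of at least 400 UMIs were kept; a UMI share or level has a 95% Clopper-Pearson or Poisson interval (scipy 1.17.1). Counts were summed per plate, or per adult plate and well group (at least 5 wells, plate as a term), filtered at 10 UMIs in total, scaled by TMM and tested with edgeR 4.0.16 (quasi-likelihood test, Benjamini-Hochberg adjustment over all genes at 0.05) in R 4.3.3, and checked on simulated data. The SE of an edgeR log2 difference is its absolute value divided by the square root of the test's F statistic. It was not estimated apart from the test. Alternatives were 2 other scalings, DESeq2 1.42.0, other filters and thresholds, left-out plates, pools in place of plates and no plate term. No doublet caller was run. The expected share of wells at 400 UMIs was added after the data had been seen. Replicate plates of an age were not identical (Pearson r of log2 CPM 0.714 to 0.897). Genes were named by rule: the 6 members, up to 4 called genes a direction from each list, the 5 most like genes per member, and the group-defining genes; genes of the lists at or near 0 (lhx4, hesx1, tbx19, six1a) were named after their values were seen. Some genes of the lists are not reported here. The members and gene lists were chosen with earlier results of these data known.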

Additional observations from a re-analysis of the deposited data

Results flagged for a closer look

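The 914 wells with fewer than 400 UMIs, which no comparison used, held 4 pitx3 UMIs and 5 eya1 UMIs among 124760 UMIs, above the 3 counts that a count of 0 allows. This is 32.1 CPM for pitx3 and 40.1 CPM for eya1. All 4 pitx3 UMIs and 4 of the 5 eya1 UMIs were on adult plates. six1b, lhx3 and pou1f1 had 1 UMI each there and pitx1 had 0.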

How the results depend on the processing

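No member's log2 difference turned its called direction under any alternative; 682 such values stayed on their side of the threshold, 37 fell short of it and 13 passed it. Counts of called genes moved more. With DESeq2 they were 1626 (5 months against 37 dpf), 1671 (7 months against 37 dpf), 143 (wnk1b-positive against other), 253 (gonadotropin-rich against other), 260 (pituicyte against other) and 107 (wnk1b-positive against pituicyte), in place of 2975, 2683, 466, 625, 652 and 212. At 7 against 5 months (102 called) library size alone gave 163, no filter 169 and leaving out gonadotropin-rich wells 43. In wnk1b-positive against other wells RLE factors gave 310, filterByExpr 212, wells of at least 1000 UMIs 236, at least 1 wnk1b UMI 244, at least 5 wnk1b UMIs 285 and sums per pool 275. In gonadotropin-rich against other wells filterByExpr gave 297. In pituicyte against other wells filterByExpr gave 315, wells of at least 1000 UMIs 420 and at least 2 cyp26b1 UMIs 334, and in wnk1b-positive against pituicyte wells at least 1000 UMIs gave 101. In wnk1b-positive wells at 7 against 5 months (2 called) library size gave 5, RLE 1, filterByExpr 1, no filter 8, at least 1000 UMIs 13, at least 1 wnk1b UMI 11, at least 5 wnk1b UMIs 1 and leaving out wells of 2 rules 1. Leaving out 1 plate gave 1249 to 3225 and 1220 to 2433 calls at 5 and 7 months against 37 dpf, 24 to 136 at 7 against 5 months, 193 to 363, 146 to 613 and 335 to 541 in wnk1b-positive, gonadotropin-rich and pituicyte wells against other, 92 to 284 and 115 to 155 in wnk1b-positive against gonadotropin-rich and pituicyte wells (295 and 212 called), and 0 to 13 within wnk1b-positive wells. Where a left-out plate leaves 1 sum in a group, that sum is assumed to vary like the other groups. The causes were not tested.

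Set against 1 draw of 400 UMIs a well, the share of wells with pitx3 was 38.0% as deposited in wnk1b-positive wells (19.0% at 400 UMIs), 35.0% as deposited and 16.2% at 1000 UMIs in gonadotropin-rich wells (2.50%), and 3.94% and 5.24% in other wells (1.24%). For eya1 it was 38.0% as deposited in wnk1b-positive wells (17.7%), 65.0% and 37.8% in gonadotropin-rich wells (5.00%), 7.35% at 1000 UMIs in pituicyte wells (2.16%), and 6.64% and 7.85% in other wells (2.28%). For six1b it was 27.5% as deposited in gonadotropin-rich wells (12.5%) and 5.24% at 1000 UMIs in other wells (1.66%). In gonadotropin-rich wells this draw lay below the expected share over all draws for pitx3 and eya1, and above it for six1b. The shares of the draw thus carry its own sampling error, and no order of the members is read from them. No paired analysis was possible because the replicate numbers, which would have to pair plates of different ages, only name plates in accession order. Well groups of the same plate were compared with plate as a term. Without that term the gonadotropin-rich calls against other wells were lost for pitx3 (edgeR adjusted p = 0.0992) and eya1 (edgeR adjusted p = 0.0882). Depth limits pitx1, lhx3 and pou1f1 most: with 2 to 15 UMIs each, their absence from a well group could not be told from a low level.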

Other observations

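The few juvenile wells with eya1 or six1b are described here by the marker lists, with no test. In the 13 wells of the 37 dpf plates with eya1, the pituicyte marker list summed to 9940 CPM, against 1347 CPM in the other 637 wells, and the neuron list to 1070 CPM, against 83.3 CPM. Their epithelial list was at 10368 CPM, against 5940 CPM, their keratinocyte list at 10766 CPM, against 5944 CPM, and their erythrocyte list at 2783 CPM, against 26074 CPM. In the 9 wells with six1b the epithelial list was at 26292 CPM, against 5737 CPM in the other 641 wells, and the keratinocyte list at 24283 CPM, against 5774 CPM. The epithelial and keratinocyte lists share krt4 and krt5, so their sums are not separate observations. All these sums pool the wells, and the part of single wells in them was not examined. The neuron list was at 423 CPM in wells with six1b, against 93.9 CPM, and the pituicyte list at 1163 CPM, against 1481 CPM.

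Among the other eya genes, eya2 stood at 6.08 CPM in the adult wells (6 UMIs) and 9.73 CPM in the 37 dpf wells (21 UMIs). eya3 stood at 20.3 CPM in the adult wells (20 UMIs) and 13.0 CPM in the 37 dpf wells (28 UMIs). The counting intervals of the ages overlapped for both, while eya1 stood at 152 CPM in the adult wells and 7.42 CPM in the 37 dpf wells. The 37 dpf wells held 68.6% of all kept UMIs. The difference between these genes was not tested, and eya4 had 6 UMIs in all.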
